A study of Homo sapiens with 60 samples.

Results

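The 10 genes described here are the chemokines CXCL8, CXCL1, CXCL2 and CCL20, the secreted factors PTX3 and LIF, the membrane proteins TNFRSF9 and SDC4, and the survival and early response genes IER3 and BIRC3. They were chosen by their high values after topotecan against DMSO in an earlier look at the same libraries and were found by symbol among the 58395 genes of the count table, so that contrast describes them here and does not test them. All 10 symbols were found in the table, and all 10 passed the filter on low counts, which kept 18985 genes.

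The cells were HEK293A, an adherent line derived from human embryonic kidney, in which TDP1 had been disrupted with CRISPR/Cas9. TDP1 is the phosphodiesterase that removes trapped topoisomerase I from the end of a DNA break. The 3 knockout lines, each 1 clone, are called C6, F7 and G6. Every group carried the knockout, and no library of unedited cells was used here. Cells of each clone received no addition (untreated), DMSO (0.1%), topotecan (100 nM, with 0.1% DMSO), the compound OL9-119 (5 µM, in 0.1% DMSO), or topotecan and OL9-119 together (100 nM and 5 µM), called the combination below; its label mentions no DMSO. Exposure lasted 5 to 5.5 h. The 15 groups had 4 replicates each, labelled as biological, which gave 60 libraries.

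Topotecan holds topoisomerase I on nicked DNA, and replication and transcription turn these complexes into breaks. DNA breaks are among the signals that free the transcription factor NF-kB from its inhibitors, after which it moves to the nucleus and binds short kappa-B sites near its targets. Many of these targets code for chemokines that call in leukocytes, for factors that keep the cell alive and for the inhibitors that switch NF-kB off again. CXCL8, CXCL1 and CXCL2 attract neutrophils, and CCL20 attracts cells that carry its receptor CCR6. PTX3 is a soluble pattern recognition protein, LIF a cytokine of the interleukin-6 family, TNFRSF9 a co-stimulatory receptor of the tumour necrosis factor receptor family and SDC4 a heparan sulfate proteoglycan. IER3 is an immediate early gene that influences cell survival, and BIRC3 is the ubiquitin ligase also called cIAP2.

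The stretches before the start sites are shown because these genes moved together and because kappa-B sites are where NF-kB binds. RefSeq's table of promoters (GRCh38.p14) held 8 of the 10 genes, all but LIF and IER3. The 150 bases before the RefSeq start are printed for 7 of them and 210 bases for BIRC3, on the gene's own strand, with capitals marking matches to the kappa-B motif on either strand and, for CXCL8, the shorter form described below.
TNFRSF9 (chr1:7940840-7940989, minus strand): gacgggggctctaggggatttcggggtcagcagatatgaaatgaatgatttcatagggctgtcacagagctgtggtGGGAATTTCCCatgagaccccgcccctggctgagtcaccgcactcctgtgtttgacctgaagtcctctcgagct
CCL20 (chr2:227813692-227813841, plus strand): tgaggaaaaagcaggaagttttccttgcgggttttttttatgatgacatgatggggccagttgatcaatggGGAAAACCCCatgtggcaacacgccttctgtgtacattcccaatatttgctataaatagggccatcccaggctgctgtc
PTX3 (chr3:157436700-157436849, plus strand): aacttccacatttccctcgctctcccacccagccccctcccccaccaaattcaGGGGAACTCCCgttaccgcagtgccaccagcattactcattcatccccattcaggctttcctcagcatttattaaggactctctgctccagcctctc
CXCL8 (chr4:73740419-73740568, plus strand): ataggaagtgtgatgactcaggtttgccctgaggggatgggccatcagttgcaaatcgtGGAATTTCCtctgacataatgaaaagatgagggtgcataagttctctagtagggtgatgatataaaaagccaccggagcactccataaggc
CXCL1 (chr4:73869243-73869392, plus strand): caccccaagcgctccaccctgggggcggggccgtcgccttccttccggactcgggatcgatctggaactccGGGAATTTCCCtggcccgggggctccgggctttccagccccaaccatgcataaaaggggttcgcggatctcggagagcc
CXCL2 (chr4:74099196-74099345, minus strand): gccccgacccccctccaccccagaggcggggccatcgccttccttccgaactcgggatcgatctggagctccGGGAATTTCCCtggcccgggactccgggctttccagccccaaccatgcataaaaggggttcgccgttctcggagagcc
BIRC3 (chr11:102317274-102317483, plus strand): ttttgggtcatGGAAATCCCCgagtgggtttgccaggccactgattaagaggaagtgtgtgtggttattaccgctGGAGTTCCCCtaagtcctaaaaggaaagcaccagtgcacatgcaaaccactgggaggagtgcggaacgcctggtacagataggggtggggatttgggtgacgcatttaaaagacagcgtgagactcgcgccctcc
SDC4 (chr20:45348425-45348574, minus strand): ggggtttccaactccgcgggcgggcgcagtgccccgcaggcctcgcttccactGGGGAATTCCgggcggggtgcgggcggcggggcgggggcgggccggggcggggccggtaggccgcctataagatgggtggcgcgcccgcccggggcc

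The kappa-B motif, searched as 3 G, a purine, any 2 bases, 2 pyrimidines and 2 C on both strands of the 250 bases before the start, matched in 7 of the 8 genes. It matched in 9.96% of all 35116 promoters in the table. CXCL8 had no match to it, but had the form GGAATTTCC, which CXCL1, CXCL2 and TNFRSF9 also held inside their longer matches and which 0.413% of all promoters held. Counted from the start, so that the last base before it is -1, the matches of CXCL1 and CXCL2 began at -79 and -78. Those of PTX3 and SDC4 began at -97, of CXCL8 at -91, of CCL20 at -79 and of TNFRSF9 at -74, while BIRC3 had matches from -199 and from -135. The AP-1 motif TGANTCA, which reads the same on both strands, lay in CXCL8 and TNFRSF9 and in 6.57% of all promoters, and the TATA box TATAAA in CCL20 and CXCL8 and in 10.7% (the TATA search also took both strands). With 1 mismatch allowed the kappa-B motif matched in 8 of 8 and in 63.9% of all promoters. The genes were grouped as chemokines and inflammatory NF-kB effectors, so frequent kappa-B forms may follow from that choice. Nothing is read from these shares. For 6 of the 8 genes, all but CXCL1 and SDC4, RefSeq's start lies inside the gene as GENCODE 29 draws it, and a match of letters is not a measured binding site.

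**Figure D1:**
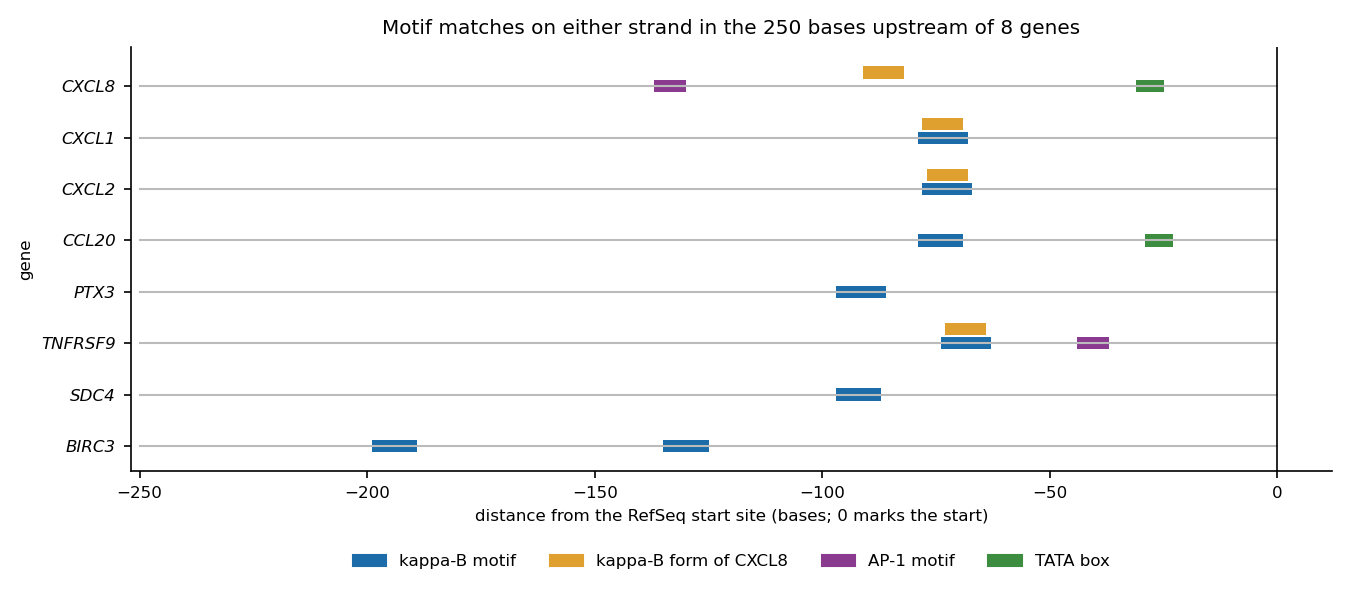
Motif matches in the 250 bases before the RefSeq start of 8 genes, 1 gene a line, with distance from the start in bases on the horizontal axis and colour giving the motif. Kappa-B matches, or the CXCL8 form of it, lie between -97 and -64 in 7 genes and farther out, from -199 and from -135, in BIRC3.

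Libraries held 4623685 to 20932497 counts (median 11378936). At a common depth of 4500000 counts, 14 libraries showed 17454 to 19345 genes and the other 46 showed 20160 to 23640; 10 of the 14 were of C6, 4 of G6 and 0 of F7, and results were also computed without them. TDP1 transcript was counted in all 60 libraries (17.8 to 42.3 CPM, the counts-per-million unit used below), and since the labels do not give the edited position this does not check the knockout. The 11 markers of HEK293 and embryonic kidney cells all passed the filter and summed to 1450 to 2430 CPM. Of 10 blood cell markers 4 passed, with sums of 8.94 to 17.3 in untreated and 8.67 to 19.5 in topotecan libraries. PTPRC, the pan-leukocyte marker, was at 0 in 53 of 60 libraries, while CSF1R was counted in all 60 (median 7.11 CPM). Of 8 fibroblast markers 4 passed, and the same sums were 25.8 to 38.8 and 21.1 to 40.1. DCN was at 0 in 39 libraries, while COL1A1 was counted in all 60 (median 27.3 CPM). Of 7 endothelial markers 4 passed, with sums of 6.56 to 11.4 and 5.23 to 13.1. CLDN5 was at 0 in 49 libraries, while VWF was counted in all 60 (median 5.39 CPM).

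Levels below are CPM after scaling for library composition, and changes are log2 differences with a standard error (SE) from 1 model over all 60 libraries, averaged over the 3 clones unless a clone is named. In bulk RNA, fewer expressing cells and less RNA per cell cannot be told apart. Per kb of exon, the resting levels spanned a wide range. In untreated C6 the mean was 69.5 CPM per kb for IER3, 53.6 for SDC4 and 3.91 for CXCL8, and 0.419 and 0.394 for CXCL1 and CXCL2. These last 2 were the least well measured: CXCL1 had under 10 counts in 21 of 60 libraries and CXCL2 in 10, with CXCL2 at 0 in 3. The C6 DMSO libraries held 0, 0, 2 and 5 counts of CXCL2, 7 in all, so any ratio to that group rests on those 7 counts. CCL20 had as few as 8 counts in 1 library, and the other 7 genes had at least 14 in every library.

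**Figure D2:**
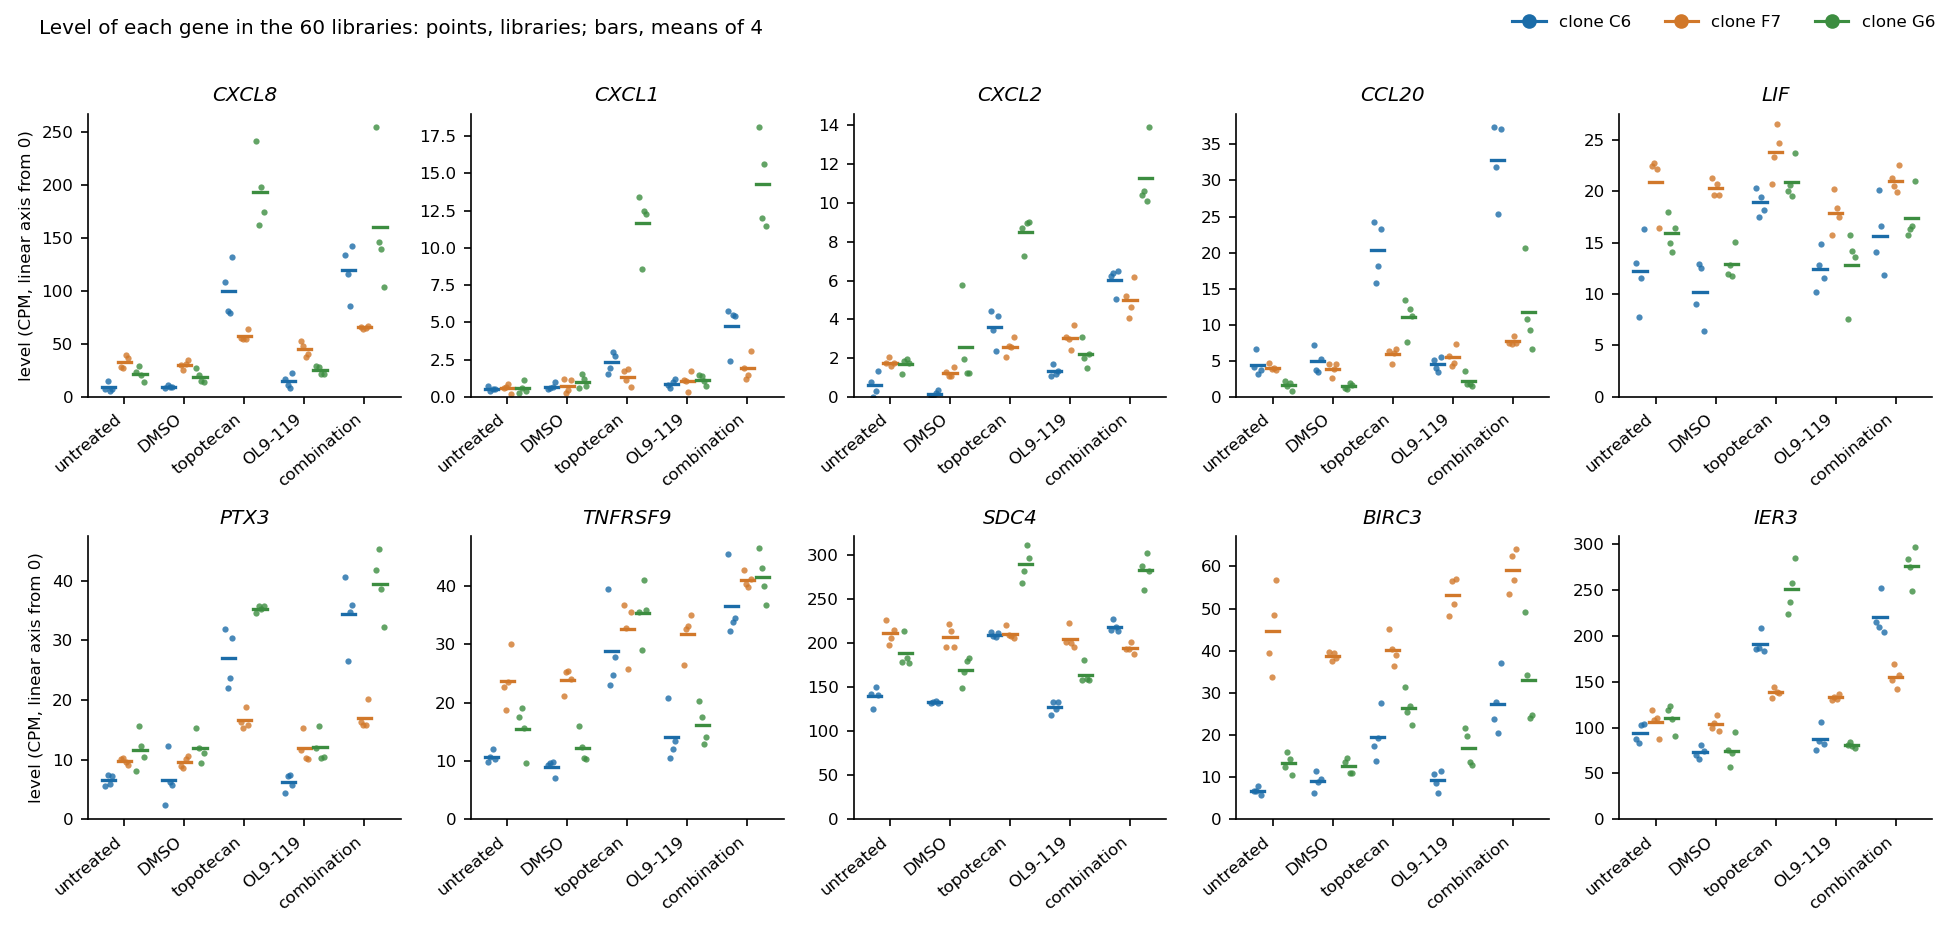
Level of each gene in CPM on a linear axis from 0, by treatment and clone, with a point for each library and a bar for the mean of 4. Topotecan and combination libraries of C6 and G6 stand above the rest for CXCL8, IER3 and PTX3, whereas for CXCL8 the F7 libraries with topotecan reach only 54.6 to 64.4 CPM.

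Per kb of exon CXCL8 was the highest of the 4 chemokines in each of the 15 groups. In C6 it measured 8.66, 10.9, 8.97 and 9.01 CPM with DMSO and 109, 80.8, 79.4 and 132 CPM with topotecan. With OL9-119 alone C6 had 16.9, 11.1, 8.53 and 22.1 CPM, and with the combination 134, 116, 85.7 and 143 CPM. Every C6 library with topotecan, alone or combined, was thus above every one without it. In G6 the 4 OL9-119 libraries lay at 29, 27.8, 21.9 and 21.4 CPM and the combination libraries at 255, 146, 140 and 104.4 CPM, again without overlap. F7 started higher and moved less, from 52.7, 48.3, 37.9 and 40.9 CPM with OL9-119 to 66.0, 64.2, 65.5 and 66.9 CPM with the combination. The mean change from OL9-119 to the combination was a log2 difference of 2.09 ± 0.14 (edgeR quasi-likelihood test, Benjamini-Hochberg adjusted p = 1.25e-18). It was 3.05 ± 0.25 in C6 and 2.69 ± 0.24 in G6, both past the threshold, and 0.54 ± 0.22 in F7 (edgeR adjusted p = 0.429).

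CXCL1 and CXCL2 are close relatives of CXCL8 in the same cluster on chromosome 4. CXCL1 was near the lower limit at rest and highest in G6, where the OL9-119 libraries had 1.46, 1.37, 1.05 and 0.712 CPM and the combination libraries 18.1, 11.96, 15.6 and 11.5 CPM. In C6 the combination gave 5.78, 2.43, 5.49 and 5.43 CPM against 0.794, 0.564, 0.997 and 1.22 CPM. In F7 the ranges overlapped, at 1.17 to 3.08 CPM against 0.303 to 1.71 CPM. CXCL2 had 6.25, 6.40, 5.05 and 6.48 CPM in the C6 combination libraries against 1.06, 1.69, 1.16 and 1.31 CPM with OL9-119. In G6 it had 10.4, 10.6, 10.1 and 13.9 CPM against 3.10, 2.01, 1.48 and 2.19 CPM. F7 was again closer, with 4.05 to 6.16 CPM against 2.42 to 3.72 CPM, although these ranges did not overlap. Mean log2 changes from OL9-119 to the combination were 2.27 ± 0.23 for CXCL1 and 1.74 ± 0.20 for CXCL2 (edgeR adjusted p = 7.4e-12 and 3.59e-10). Reads of the pair may be shared in part, since 60 of the 1247 stretches of 50 bases in CXCL1 transcripts (4.81%) also occur in CXCL2, and 8.99% of those in CXCL2 occur in its neighbour CXCL3.

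CCL20 lay outside that cluster, on chromosome 2, and had its highest level in C6. The C6 combination libraries had 37.4, 31.8, 25.4 and 37.1 CPM, above both the OL9-119 libraries at 5.16, 4.04, 3.49 and 5.5 CPM and the topotecan libraries at 24.2, 15.8, 18.1 and 23.3 CPM. In G6 the combination libraries spread from 6.58 to 20.7 CPM against 1.48 to 3.59 CPM with OL9-119. In F7 they lay between 7.34 and 8.45 CPM, just above the 4.32 to 7.26 CPM of OL9-119. The mean log2 change from OL9-119 to the combination was 1.93 ± 0.16 (edgeR adjusted p = 1.45e-14).

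The secreted factors PTX3 and LIF differed in the size of their change. PTX3 in C6 rose from 4.498, 7.24, 7.47 and 5.76 CPM with OL9-119 to 40.6, 26.5, 34.7 and 36.05 CPM with the combination, and in G6 from 11.9, 15.7, 10.3 and 10.4 CPM to 41.8, 45.3, 38.6 and 32.3 CPM. F7 had 10.2 to 15.4 CPM and 15.8 to 20.2 CPM. The mean change was 1.56 ± 0.12 (edgeR adjusted p = 5.73e-16). LIF moved least of the 10: its C6 libraries had 10.2, 12.8, 14.9 and 11.6 CPM with OL9-119 and 14.1, 20.1, 16.6 and 11.8 CPM with the combination, which overlap. In G6 the groups met, at 7.54 to 15.7 CPM with OL9-119 and 15.7 to 21.0 CPM with the combination. The mean change of LIF, 0.33 ± 0.10, passed the threshold (edgeR adjusted p = 0.0173), but its change within each clone did not (edgeR adjusted p = 0.341 in C6, 1 in F7 and 0.113 in G6).

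The membrane proteins differed in their resting level. TNFRSF9 in C6 had 20.8, 10.5, 12.1 and 13.5 CPM with OL9-119 and 45.5, 32.2, 33.9 and 34.5 CPM with the combination. Across clones the combination brought it to nearly one level, with means of 36.5 CPM in C6, 41.01 in F7 and 41.6 in G6, from DMSO means of 8.99, 23.9 and 12.3 CPM. Its mean change from OL9-119 was 1.03 ± 0.10 (edgeR adjusted p = 6.87e-12). SDC4, one of the more abundant of the 10, varied little between replicates, so a small change stood clear. In C6 it had 119, 134, 126.5 and 134 CPM with OL9-119 and 215, 228, 219 and 214 CPM with the combination. In G6 the corresponding values were 159, 181, 160 and 158 CPM and 288, 261, 303 and 282 CPM. In F7 the combination libraries, at 194, 194, 202 and 188 CPM, lay among or under those with OL9-119, at 202, 223, 200 and 196 CPM. The mean log2 change of SDC4 was 0.49 ± 0.04 (edgeR adjusted p = 4.47e-15).

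IER3 and BIRC3 complete the group. IER3 had the smallest adjusted p of the 10, with a change of 1.11 ± 0.06 (edgeR adjusted p = 2.59e-21), and went from 75.4, 85.6, 106 and 82.4 CPM to 215, 209, 252 and 204 CPM in C6. In G6 it went from 81.1, 84.3, 80.0 and 77.5 CPM to 283, 275, 249 and 296 CPM, and in F7 from 130, 133, 131 and 137 CPM to 152, 169, 142 and 157 CPM. BIRC3 was high in F7, where every library, drug or not, held at least 33.8 CPM. The highest C6 library of any treatment held 37.1 CPM, and the G6 combination libraries had 49.3, 34.2, 24.1 and 24.7 CPM, of which the first 2 lay within the F7 range and the first is a library of low detection. The F7 libraries with OL9-119 had 48.3, 56.6, 51.2 and 57.0 CPM and those with the combination 53.5, 62.4, 56.8 and 64.2 CPM, which overlap. In C6 BIRC3 went from 10.8, 8.75, 6.37 and 11.4 CPM to 23.9, 27.8, 20.4 and 37.1 CPM. The mean change was 0.90 ± 0.11 (edgeR adjusted p = 1.15e-08).

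The question for which these data allow a test is what topotecan did on top of OL9-119, since neither set of libraries enters the contrast that chose the genes, although the earlier look at the data covered all libraries. Of the 10 genes, 10 were higher in the combination than with OL9-119 alone, against 5.00% of all genes tested that were called higher. Their median log2 change was 1.33, against -0.01 over all genes tested. By clone, 9 of 10 were called higher in C6 (all but LIF; background 1.85%) and 9 of 10 in G6 (all but LIF; background 1.72%), or 8 in G6 when only the groups compared were fitted, without BIRC3. In F7 the count was 0 of 10 in edgeR (background 0.132%), with 5 of 10 at an unadjusted p under 0.05 and 0 of 10 past the threshold in DESeq2. For the unadjusted cut, and for the alternative fits that follow, no share of all genes in F7 is given. Nothing is read from those counts. When only the 8 F7 libraries compared were fitted, 5 of the 10 passed in F7 (TNFRSF9, PTX3, CXCL8, CXCL2 and IER3), and without the libraries of low detection, none of which is of F7, 3 passed. All 4 combination libraries lay above all 4 OL9-119 libraries for 9 of the 10 genes in C6, 9 in G6 and 6 in F7, where 2.56%, 3.37% and 4.97% of all genes tested did so. All 10 calls in the mean over clones held without the 14 libraries of low detection, and all 10 changes were above 0 within each of the 3 sets of libraries that share the prefix L01, L02 or L03 in their labels, whose meaning the labels do not give.

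Topotecan against DMSO gave much the same sizes and is described without a test. Mean log2 changes were 2.56 ± 0.14 for CXCL8, 2.31 ± 0.24 for CXCL2, 2.01 ± 0.24 for CXCL1, 1.85 ± 0.17 for CCL20 and 1.46 ± 0.12 for PTX3. They were 1.22 ± 0.11 for TNFRSF9, 1.18 ± 0.06 for IER3, 0.75 ± 0.12 for BIRC3, 0.61 ± 0.10 for LIF and 0.49 ± 0.04 for SDC4. All 10 lay past the threshold that 5.99% of all genes tested passed upward, and nothing is read from that count because the contrast chose the genes. In C6 the 10 changes ran from 0.66 for SDC4 to 4.15 for CXCL2, in G6 from 0.69 for LIF to 3.59 for CXCL1, and in F7 from 0.03 for SDC4 to 1.08 for CXCL2. The highest changes of C6 and G6 were for genes at low counts in DMSO: CXCL2 went from 0, 0, 0.185 and 0.358 CPM to 4.45, 3.47, 2.36 and 4.16 CPM in C6, and CXCL1 from 0.596, 1.55, 1.22 and 0.700 CPM to 13.4, 8.60, 12.5 and 12.3 CPM in G6. The C6 change of CXCL2 ran from 3.90 to 5.16 when 1 library was left out, the highest without DMSO replicate 4. Without the libraries of low detection it was 3.34, beside 3.18 for CXCL8, and in G6 CXCL1 was at 3.46, under CXCL8 at 3.58. The combination against DMSO, which shares the DMSO libraries and is also a description, gave 3.02 ± 0.23 for CXCL2, 2.64 ± 0.24 for CXCL1 and 2.63 ± 0.14 for CXCL8, down to 0.37 ± 0.10 for LIF, where 9.52% of all genes tested were called higher.

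**Figure D3:**
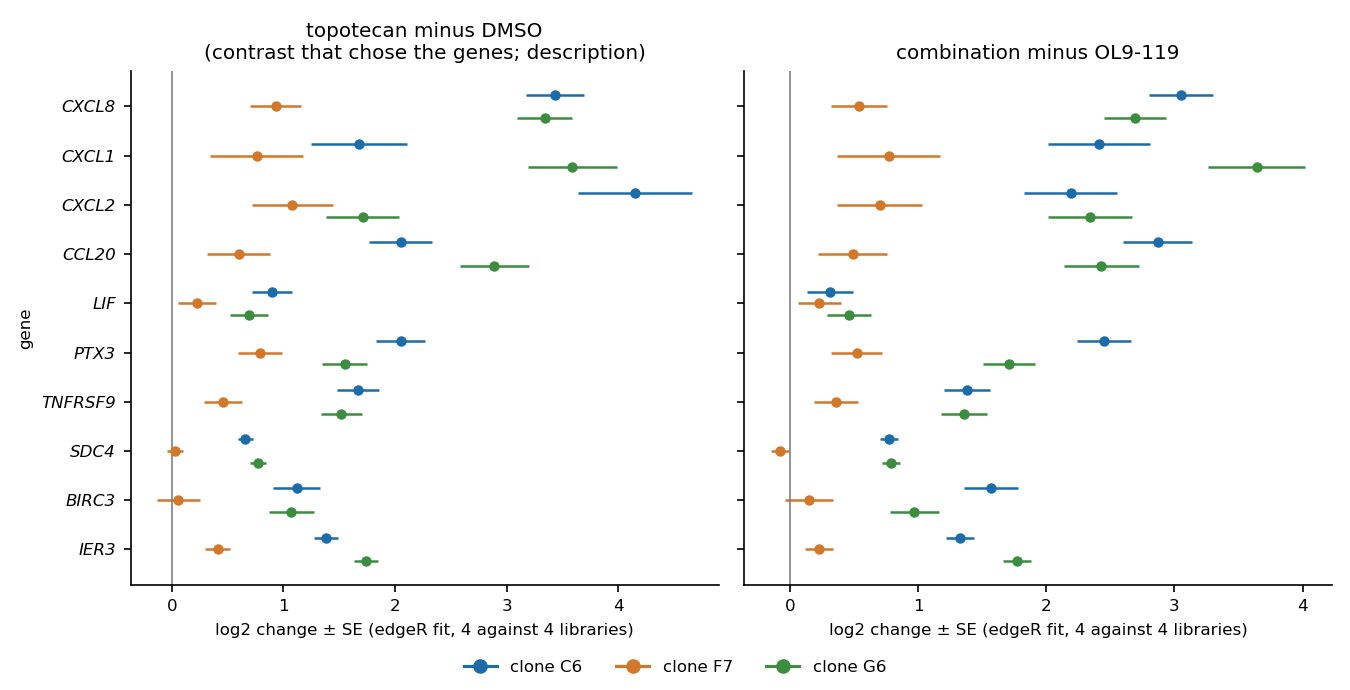
Log2 change with its SE for each gene in each clone, for topotecan minus DMSO on the left, which chose the genes, and for the combination minus OL9-119 on the right. The F7 point lies nearest to 0 for all 10 genes in both panels.

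A test of the difference itself asked whether the change differed anywhere among the 3 clones. It does not name the clone that differs, so the place of F7 is read from the estimates. For the combination minus OL9-119, 21 of 18985 genes (0.111%) had a change that differed between clones, and 7 of these were among the 10: IER3, SDC4, CXCL8, PTX3, CCL20, CXCL1 and BIRC3 (edgeR adjusted p from 4.64e-10 for IER3 to 0.0224 for BIRC3). F7 had the smallest change of the 3 clones in all 7. IER3 changed by 1.33 in C6, 0.23 in F7 and 1.77 in G6, and CCL20 by 2.87, 0.49 and 2.43. SDC4 changed by 0.77 and 0.79 in C6 and G6 and by -0.08 in F7. TNFRSF9, CXCL2 and LIF did not pass (edgeR adjusted p = 0.0631, 0.39 and 0.99). TNFRSF9 did pass in 5 of the 7 alternatives (adjusted p from 0.00211 to 0.0199 in edgeR and 0.00493 in DESeq2), and CXCL2 passed without the libraries of low detection (edgeR adjusted p = 0.00211) and in DESeq2 (adjusted p = 0.00103). With only the groups compared the calls of BIRC3 and CXCL1 were lost (edgeR adjusted p = 0.229 and 0.0512), so the count ran from 5 to 9 of the 10 over the alternatives. BIRC3 was also lost in 6 of 24 fits that each left out 1 library, and CXCL1 in 3 of 24. The 14 other genes included the NF-kB inhibitors TNFAIP3 (2.39, 0.45 and 2.08 in C6, F7 and G6) and NFKBIA (1.45, 0.24 and 1.51), the activation antigens CD83 and CD69, and the chemokine CCL2. They were not all rising genes: AURKA, KIF20A and PLK1, which act in mitosis and are named after their values were seen, fell by less in F7 than in C6 or G6. F7 had the smallest change in 20 of the 21, the exception being SAT1. Of 28 genes outside the group that were called higher by a log2 change of at least 1, 3 differed between clones. Among the 7 above, SDC4 (0.49) and BIRC3 (0.90) had mean changes under that limit, so the counts are not on the same footing. In topotecan minus DMSO the same test called 26 genes (0.137%), 7 of them among the 10, with F7 smallest in 26 of 26, and as that contrast chose the genes nothing is read from the count.

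On these 10 genes OL9-119 by itself had a smaller and less uniform effect than topotecan. Their choice by high values after topotecan favours that, so the 2 treatments are not compared by it. Over all genes tested, 5.99% were called higher with topotecan against DMSO and 4.47% with OL9-119. Against DMSO, 4 of the 10 were higher (background 4.47%): CXCL2 by 1.27 ± 0.25, CXCL8 by 0.53 ± 0.14, TNFRSF9 by 0.49 ± 0.11 and IER3 by 0.24 ± 0.06 (edgeR adjusted p = 0.000194, 0.00791, 0.000902 and 0.0064). Within single clones edgeR called 2 higher in C6 (TNFRSF9 and CXCL2, background 1.32%) and 1 in F7 (CXCL2, background 0.643%). In G6 it called 0 (background 0.911%), with 2 at an unadjusted p under 0.05 and 0 in DESeq2. The order of C6 and F7 depended on the fit. With only the groups compared the counts were 0 in C6 and 5 in F7 (BIRC3, CXCL2, CXCL8, IER3 and TNFRSF9). With a replicate block they were 2 and 3. DESeq2 called 2 in C6 and only IER3 in F7. Shares of all genes are not given for these fits or for the unadjusted cut. These comparisons share the DMSO libraries with the contrast that chose the genes. CXCL2 had 2.42 to 3.72 CPM in F7 against 1.05 to 1.54 with DMSO, and 1.06 to 1.69 CPM in C6 against the 0 to 0.358 CPM noted above. In G6 the CXCL2 groups overlapped, with 1.48 to 3.10 CPM against 1.22 to 5.79 CPM, the highest value being DMSO replicate 1, a library of low detection. CXCL8 in F7 had 37.9 to 52.7 CPM with OL9-119 against 25.4 to 34.4 CPM with DMSO, while in C6 and G6 the groups overlapped. IER3 in F7 had 130, 133, 131 and 137 CPM against 99.9, 105, 114 and 96.1 CPM. For the other 6 the changes ran from -0.04 ± 0.04 for SDC4 to 0.36 ± 0.25 for CXCL1, with BIRC3 at 0.31 ± 0.12 (edgeR adjusted p = 0.0963). All 4 libraries with OL9-119 lay above all 4 with DMSO for 5 genes in F7, 2 in C6 and 0 in G6, against 6.93%, 2.75% and 2.63% of all genes tested.

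In the mean over clones OL9-119 on top of topotecan raised 3 of the 10 (background 3.33%). Within single clones edgeR called 0 of 10 higher in C6, in F7 and in G6 (background 0.880%, 0.448% and 0.348%). At an unadjusted edgeR p under 0.05 there were 5, 2 and 0, and DESeq2 called 0 in each. With only the groups compared, 4 passed in F7 (BIRC3, CXCL2, IER3 and TNFRSF9) and 0 in C6 and in G6. A replicate block gave 1 in C6 (CCL20) and 1 in F7 (BIRC3). Shares of all genes are not given for these fits or for the unadjusted cut. Averaged over clones, CXCL2 was higher by 0.71 ± 0.19 and BIRC3 by 0.45 ± 0.11 (edgeR adjusted p = 0.0113 and 0.00559). TNFRSF9 was higher by 0.31 ± 0.10 (edgeR adjusted p = 0.0497). The topotecan libraries in this comparison were also used in choosing the genes. For CXCL2 the 2 groups did not overlap in any of the 3 clones, at 5.05 to 6.48 CPM against 2.36 to 4.45 CPM in C6, 4.05 to 6.16 against 2.05 to 3.08 in F7 and 10.1 to 13.9 against 7.25 to 9.02 in G6, where 2.25%, 6.70% and 2.59% of all genes tested were so separated. BIRC3 did so in F7 only, with 53.5, 62.4, 56.8 and 64.2 CPM against 45.2, 40.5, 36.4 and 38.9 CPM. Of the 10 genes, 3 were separated upward in C6, 4 in F7 and 1 in G6, while SDC4 in F7 was separated downward. The BIRC3 call was lost without the libraries of low detection (0.31, edgeR adjusted p = 0.0892), and the TNFRSF9 call in 18 of 24 fits that left out 1 library. CXCL8, which had the largest mean change from DMSO to topotecan, was at 0.06 ± 0.13 (edgeR adjusted p = 0.841), SDC4 at -0.03 ± 0.04 and LIF at -0.24 ± 0.10. CCL20 stood at 0.40 ± 0.15 and CXCL1 at 0.62 ± 0.21 (edgeR adjusted p = 0.096 and 0.0588). CXCL1 and IER3 passed when only the groups compared were fitted (edgeR adjusted p = 0.0273 and 0.0246) and in DESeq2 (adjusted p = 0.022 and 0.0335).

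**Figure D4:**
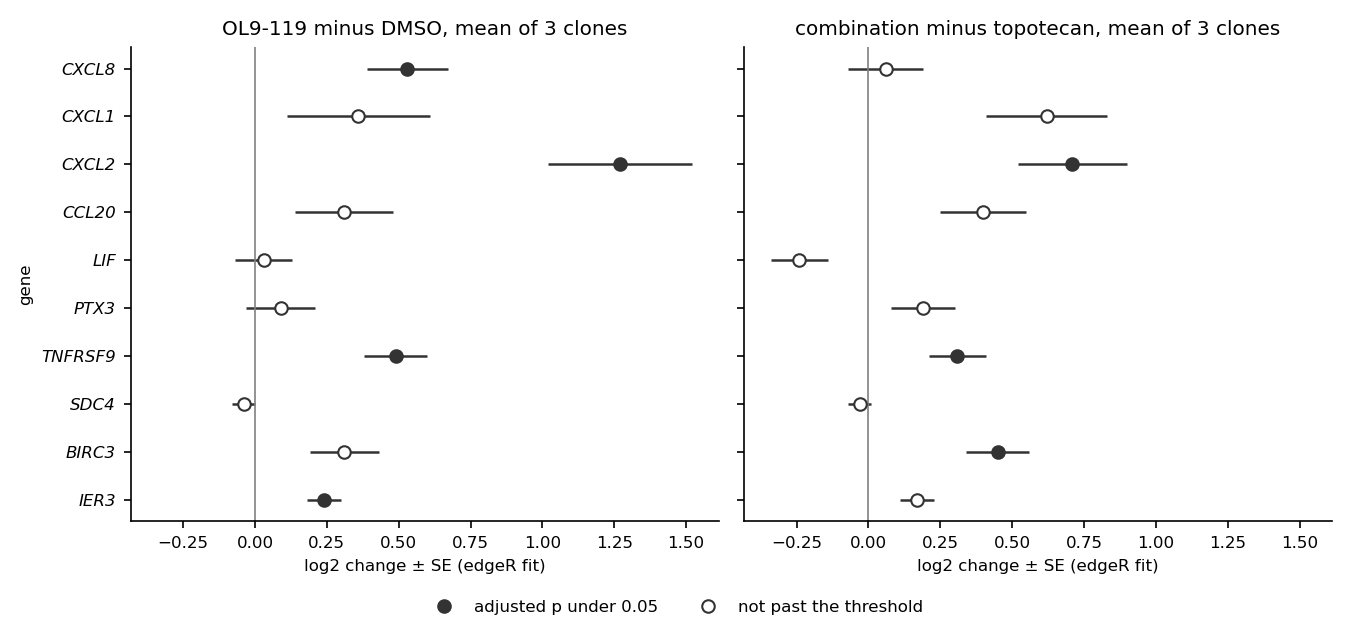
Mean log2 change over 3 clones with its SE, on the left for OL9-119 minus DMSO and on the right for the combination minus topotecan, with filled points past the threshold. CXCL2 has the largest change in both panels, and TNFRSF9 is filled in both, whereas SDC4 and LIF lie near or below 0.

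With the vehicle alone 1 of the 10 was called, and that call was not stable. The DMSO libraries were also used in choosing the genes, and that choice favours genes that were low in them. IER3 was lower with DMSO than in untreated cells by 0.32 on average (log2 change -0.32 ± 0.06, edgeR adjusted p = 0.0225), and it was 1 of only 3 genes of 18985 called (0.0158%). In C6 its DMSO libraries had 70.0, 65.6, 81.1 and 74.9 CPM and the untreated ones 87.0, 83.0, 102.8 and 104.2 CPM. In G6 the values were 75.0, 57.1, 72.7 and 94.6 CPM against 119, 122.6, 109 and 90.4 CPM, and in F7 96.1 to 114 CPM against 87.1 to 119 CPM. The call was lost in 12 of 24 fits without 1 library, without the libraries of low detection (-0.29, edgeR adjusted p = 0.122), and when only the untreated and DMSO libraries were fitted (-0.33, edgeR adjusted p = 0.459). For the other 9 genes the difference lay between -0.57 ± 0.27 for CXCL2 and 0.52 ± 0.28 for CXCL1.

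The clones differed before any drug. In untreated cells 7 of the 10 were higher in F7 than in C6 (background 15.8%), with BIRC3 at a log2 difference of 2.71 ± 0.22, CXCL8 at 1.96 ± 0.26, CXCL2 at 1.38 ± 0.41 and TNFRSF9 at 1.12 ± 0.19 (edgeR adjusted p = 1.93e-15, 1.36e-08, 0.00687 and 2.43e-06). LIF, PTX3 and SDC4 followed at 0.76 ± 0.18, 0.60 ± 0.22 and 0.59 ± 0.07. The untreated BIRC3 libraries were 39.4, 33.8, 48.6 and 56.9 CPM in F7, 6.67, 6.63, 8.01 and 5.74 CPM in C6 and 12.4, 15.9, 14.4 and 10.5 CPM in G6, with no overlap between any 2 clones. G6 was above C6 for 6 of the 10 (background 11.4%) and below it for 1 (background 11%), CCL20, at 2.20, 1.51, 1.93 and 0.806 CPM against 4.19, 6.63, 3.10 and 3.74 CPM (-1.44 ± 0.32, edgeR adjusted p = 0.000545). Against F7, G6 was lower for 3 (background 7.28%): BIRC3 by 1.75 (-1.75 ± 0.20), CCL20 (-1.40 ± 0.32) and TNFRSF9 (-0.61 ± 0.18). IER3 and CXCL1 were not shown to differ between any pair of clones, with differences of 0.22 ± 0.11 or less for IER3. Some smaller differences lay near the threshold. PTX3 in F7 against C6 lost its call in 4 of 8 fits without 1 library while its difference stayed between 0.53 and 0.68, and TNFRSF9 in G6 against C6 lost it in 6 of 8, at differences of 0.40 to 0.71.

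The levels were also placed in order over the 15 groups. For CXCL8, IER3 and PTX3 the 4 highest group means were those of G6 and C6 with topotecan or the combination, for CXCL8 from 194 down to 100 CPM, and the ranges of the lowest of these and of the next group, F7 with the combination at 65.7 CPM, did not overlap. For SDC4 only G6 with topotecan and with the combination, at 290 and 283 CPM, stood apart at the top. For BIRC3 the 5 F7 groups came first, at 59.2 to 38.8 CPM, and the C6 and G6 groups followed interleaved, from G6 with the combination at 33.1 CPM down to untreated C6 at 6.76 CPM. For BIRC3, LIF and TNFRSF9 each of the 14 pairs of neighbours in the order overlapped, and over the other 7 genes 1 or 2 of the 14 pairs did not.

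How alike the profiles were is a description, since genes chosen for one response share it. With each clone centred on its own mean, Pearson's r over the 15 group means between a gene and the average of the other 9 was highest for CXCL8 (0.989), CCL20 (0.988) and TNFRSF9 (0.987) and lowest for LIF (0.803), and these groups share their libraries. Between replicates of the same group, over 60 libraries, the 45 pairs of genes had r from -0.48 to 0.67 with a median of 0.08. The highest values there were CXCL8 with BIRC3 (0.67), CCL20 (0.58) and TNFRSF9 (0.53), and the lowest was CCL20 with LIF (-0.48), all in libraries that share depth and preparation. Of 12356 genes of at least moderate level, the 5 outside the 10 that were most like their average were TNFAIP3 (0.992), NFKBIA (0.991), SNHG12 (0.990), RELB (0.984) and JUNB (0.982), over the 15 groups. The 5 most like CXCL8 were TNFAIP3 (0.995), RELB (0.989), FAM53C (0.980), SNHG12 (0.977) and NFKBIA (0.976).

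The rest of the pathway was taken from lists written with earlier results of these data known. Of the 5 NF-kB subunits, 2 were higher in the combination than with OL9-119: RELB by 0.80 ± 0.13 and NFKB2 by 0.55 ± 0.07, with a list median of 0.25. Of 11 inhibitors and feedback genes, 4 were higher, TNFAIP3 by 1.64 ± 0.06, NFKBIA by 1.07 ± 0.06, NFKBIZ by 0.47 ± 0.10 and NFKBIE by 0.40 ± 0.12. Of 14 kinases and adaptors that activate NF-kB, RIPK1 (0.27 ± 0.05) and TRAF6 (0.22 ± 0.07) were higher and TAB2 lower (-0.26 ± 0.07), with a median of -0.06. Of 31 measured other inflammatory targets 14 were higher and 1 lower (median 0.30), led by the activation antigen CD69 (2.48 ± 0.29), the cytokine TNF (1.37 ± 0.22), the prostaglandin synthase PTGS2 (1.18 ± 0.37) and CD83 (0.98 ± 0.06). CD69 and PTGS2 were at low levels, with medians of 1.38 and 0.811 CPM and 7 and 2 libraries at 0. Over all genes tested the median was -0.01 in the same comparison, with 5.00% called higher and 7.72% lower.

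Among chemokine ligands outside the 10, 24 were listed and 10 passed the filter. From OL9-119 to the combination 3 of these rose (background 5.00%), CXCL10 by 2.28 ± 0.34, CXCL3 by 2.10 ± 0.30 and CCL2 by 0.82 ± 0.14 (edgeR adjusted p = 4.57e-07, 3.02e-07 and 5.85e-06), and the list's median was 0.21. CXCL10 and CXCL3 were at low levels, with medians of 1.59 and 1.3 CPM, and CXCL3 was at 0 in 5 libraries. CXCL3 belongs to the cluster of 359 kb on chromosome 4 that starts with CXCL8 (73740506 to 73743716, plus strand) and ends with CXCL2 (74097035 to 74099293, minus strand) in GRCh38. Inside it a rise was not shown for every gene. CXCL6, with a median of 0.266 CPM and at 0 in 16 libraries, had a change of 1.38 (edgeR adjusted p = 0.148). PF4V1, PF4, PPBP and CXCL5 did not pass the filter, with no library above 0.435 CPM, so their response was not tested. Beyond CXCL2, AREG, which codes for the growth factor amphiregulin, had a change of 0.23 (edgeR adjusted p = 0.471).

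The receptors for these ligands were at or near the limit. CXCR1, CXCR2, ACKR1 and CCR6 did not pass the filter, and CCR6, the receptor of CCL20, was at 0 in 59 of 60 libraries. The LIF receptor chains LIFR and IL6ST were well measured, with medians of 192 and 236 CPM. Of 10 measured receptors and partners, topotecan against DMSO gave 1 higher, the TNFRSF9 ligand TNFSF9 by 0.42 ± 0.13, and 2 lower, LIFR at -0.29 ± 0.09 and SDC2 at -0.19 ± 0.07 (edgeR adjusted p = 0.017, 0.0201 and 0.038), where 15.3% of all genes tested changed. Of 10 measured genes of LIF receptor signalling, the feedback inhibitor SOCS3 was the single one called from OL9-119 to the combination, and it was lower (-0.31 ± 0.10, edgeR adjusted p = 0.0386). In that comparison 12.7% of all genes tested changed, so nothing is read from this count.

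The 10 genes are short, from 1.36 kb for IER3 to 27.3 kb for TNFRSF9. Of the 6397 protein-coding genes in that range of length, 12.3% were called higher in topotecan against DMSO and 9.75% in the combination against OL9-119, against 5.99% and 5.00% of all genes tested.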

How the data were processed

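Poly(A) RNA of 60 libraries was sequenced from directional libraries, per the labels' protocols. The submitters' processing notes name STAR 2.7.8, FastQC 0.11.9 and Picard 2.26.6, with the build hg38; which counting tool was used, and with which strand setting, is not given in the sources used here. The authors deposited 1 table of raw counts per Ensembl gene, whole numbers without normalisation. Here 58275 of 58395 identifiers were found in GENCODE 29 and 57754 were given symbols. Counts were scaled by TMM (factors 0.925 to 1.08) and fitted in edgeR 4.0.16 (R 4.3.3) by the quasi-likelihood method with 1 mean for each of 15 groups over all 60 libraries, after its filter on low counts. Every p-value was adjusted by Benjamini and Hochberg over all 18985 genes, 2-sided, with a threshold of 0.05. Clone differences were tested with 2 degrees of freedom. CPM use TMM-scaled library sizes, and profiles use log2 CPM with a prior count of 2. Promoters came from RefSeq and motifs were searched with Python 3.11.15.

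The 10 genes, the gene lists and the limit for low detection were chosen with earlier results of these data known. Of each list, up to 4 genes past the threshold with the largest change are named per comparison; the genes most alike are the top 5 by r. The test of clone differences in topotecan minus DMSO had been planned, but its result for the 10 genes is given as a description, since that contrast chose them. Replicates are labelled as biological, with no culture named, so p-values measure the spread between these libraries. Replicate pairs differed by 2.31 to 59.8 times their counting noise, so none was counted as 1 sample. Recomputed alternatives were DESeq2 1.42.0, its size factors, no filter, a replicate block, the label prefix as a term, only the groups compared, no low-detection libraries (under 20000 genes at 4500000 counts) and each library left out; fits within 1 label prefix were added after the data were seen. In counts simulated for the combination minus OL9-119, the fit recovered 200 of 200 changed genes among 18985 and called 10 others. Those counts had the same relative spread for every gene, no differences between clones and changes only in genes above a set level. They checked that the fit ran properly, and do not show its recovery at the real spread or at low counts.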

Additional observations from a re-analysis of the deposited data

Results flagged for a closer look

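In 15 of the 150 combinations of gene and group, 1 library stood apart from the other 3 by Dixon's criterion at 95%, which chance meets in about 1 of 20 groups. CXCL2 held 4 of them. G6 DMSO replicate 1 had 5.79 CPM of CXCL2 where the others had 1.22 to 1.94 CPM. Replicate 4 of the G6 combination was at 13.9 CPM, replicate 2 of G6 topotecan at 7.25 CPM and replicate 3 of the C6 combination at 5.05 CPM. Among the other chemokines, CXCL8 was high in replicate 2 of C6 DMSO (10.9 CPM) and replicate 4 of F7 topotecan (64.4 CPM), and CXCL1 was low in replicate 2 of the C6 combination (2.43 CPM). CCL20 was high in replicate 3 of the F7 combination (8.45 CPM) and replicate 1 of G6 OL9-119 (3.59 CPM). LIF was low in untreated F7 replicate 4 (16.4 CPM) and high in replicate 4 of the G6 combination (21.0 CPM). PTX3 was high in replicate 4 of the F7 combination (20.2 CPM), SDC4 in replicate 2 of untreated G6 (214 CPM) and of G6 OL9-119 (181 CPM), and IER3 in replicate 3 of C6 topotecan (208 CPM). Of these libraries, G6 DMSO replicate 1, G6 OL9-119 replicate 1, C6 DMSO replicate 2 and C6 combination replicate 2 were of low detection. Their part in the values was not tested.

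The change from OL9-119 to the combination differed between clones for 7 genes, by a test of the difference itself. The edgeR adjusted p was 4.64e-10 for IER3, 8.8e-10 for SDC4, 6.35e-07 for CXCL8, 0.000167 for PTX3, 0.000205 for CCL20, 0.014 for CXCL1 and 0.0224 for BIRC3. For each of these, F7 had the smallest change of the 3 clones.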

How the results depend on the processing

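The count of 10 of 10 genes higher in the combination than with OL9-119 was the same under each of the 7 alternatives run and in all 24 fits that left out 1 library. The least settled was the combination against topotecan, where the count of 3 became 6 with a replicate block, 5 with only the groups compared, 5 in DESeq2 and 2 to 5 without 1 library, and the genes called in all went from 1287 to 2455 with the block. DMSO against untreated went from 3 genes to 13 without the filter, 11 with the block, 16 in DESeq2, and 0 in edgeR both with only the groups compared (847 at an unadjusted p under 0.05) and without the libraries of low detection (1448 at an unadjusted p under 0.05). These last fits called 0 of the 10 genes, and fits without 1 library called 1 to 12 genes or 0 to 1 of the 10. In OL9-119 against DMSO 2902 genes were called without the libraries of low detection, against 1798. G6 against C6 gave 2600 genes with only the groups compared, against 4259. G6 against F7 gave 4764 genes without the libraries of low detection, against 3170, and 5 of the 10 against 3 (2 to 5 without 1 library). Clone differences after topotecan were called for 52 genes without these libraries and 43 in DESeq2, against 26. For the combination minus OL9-119 they were called for 44 genes without the filter, 39 with the block and 13 with only the groups compared, against 21. The causes were not tested.

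The replicate numbers did not meet the bar for pairing, a correlation of deviations over 0.1 in every pair of libraries of the same number, and the labels name no shared culture or day. Such correlations were over 0.1 in 21 of 40 pairs of the same number in C6, 14 of 40 in F7 and 21 of 40 in G6, against 34, 20 and 24 of 120 pairs of different numbers. Their medians were 0.12, 0.013 and 0.276 for the same number and -0.0215, 0.001 and -0.0555 for different numbers. Missing the bar therefore does not show that libraries of the same number were independent. With a replicate block CCL20, CXCL1 and IER3 passed for the combination minus topotecan (edgeR adjusted p = 0.0269, 0.0464 and 0.0275), and 3280 genes were called for the combination minus OL9-119, against 2415, and 10 of the 10 genes again.

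Directions turned only for changes that did not pass the threshold. Without the libraries of low detection these were CXCL8 (-0.09) for the combination minus topotecan, PTX3 (-0.11) for DMSO minus untreated, CCL20 (0.18) for F7 minus C6, CXCL1 (0.07) for G6 minus C6, and CXCL2 (0.02) and IER3 (-0.01) for G6 minus F7. With DESeq2 size factors CCL20 turned for F7 minus C6 (0.01). Within single prefixes, in fits added after the data were seen, CXCL8 (-0.16, L03) turned for the combination minus topotecan, and PTX3 (-0.05, L03) and LIF (-0.13, L01) for OL9-119 minus DMSO. Leaving out 1 library moved CXCL8 between -0.04 and 0.12 for the combination minus topotecan and LIF between -0.03 and 0.10 for OL9-119 minus DMSO. For DMSO minus untreated the ranges were -0.08 to 0.10 for CCL20, -0.11 to 0.09 for PTX3 and -0.12 to 0.05 for CXCL8. For F7 minus C6 the range was -0.17 to 0.17 for CCL20, and for G6 minus C6 -0.52 to 0.17 for CXCL1. For G6 minus F7 the ranges were -0.67 to 0.02 for CXCL1, -0.17 to 0.03 for CXCL2 and -0.03 to 0.13 for IER3. Depth limits CXCL1 and CXCL2 most, whose control libraries held 0 to 68 counts.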
